A study of Mus musculus with 6 samples.

Results

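The brain's extracellular matrix is built on hyaluronan, a long sugar chain to which large chondroitin sulfate proteoglycans, the lecticans, are bound and held in place by link proteins, with tenascin-R as a crosslinker. Around many neurons, above all the fast-spiking interneurons that express parvalbumin, this matrix condenses into a perineuronal net, which is known to limit plasticity in the mature brain. Secreted metalloproteases of the ADAMTS family cut the lectican core proteins and so take part in the turnover of this matrix. The 10 genes described here are the proteases Adamts5 and Adamts4, the lecticans Acan (aggrecan), Bcan (brevican), Ncan (neurocan) and Vcan (versican), the link proteins Hapln1, Hapln2 and Hapln4, and Tnr (tenascin-R). They were found by gene symbol among the 38087 genes of the deposited table, and all 10 were among the 16337 genes that passed a filter on low counts. Adamts5 was chosen by its values in this very comparison, because its WT and Sgo1-/+ libraries do not overlap. Its difference between the groups is therefore a description here, given without a test.

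Each library was made from the brain of 1 mouse aged 24 months on the C57BL6 background, 3 of them wild type (WT) and 3 Sgo1-/+. Sgo1-/+ mice carry 1 intact copy of Sgo1, the gene of shugoshin 1, which protects the cohesion of sister chromatids in mitosis. By the study's methods the tissue was cerebrum, cortex and hippocampus included, from which the medulla, the cerebellum and the olfactory bulb had been removed. Each group held 1 male, which was replicate 1 in WT and replicate 2 in Sgo1-/+, and 2 females. Sequencing run 258 held every WT library and run 259 every Sgo1-/+ library, and the effects of genotype and run cannot be told apart.

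Total estimated counts lay between 11123917 and 12505561 per library. Sgo1 itself was too low to check the labels, with 0, 6.67 and 0 normalized counts in WT and 3.97, 2.03 and 0 in Sgo1-/+. The WT replicate 1 library stood apart from the others. All 12 genes of a brain stem list and all 12 of a cerebellum list were highest there, with summed levels of 6482 and 28088 normalized counts against at most 936 and 2485 in any other library, although neither region was part of the stated tissue. Its summed level of 10 cortical excitatory neuron genes was 6056 normalized counts, against 22252 to 31816 in the other 5 libraries. Results that rest on this library are given with and without it. Normalized counts are estimated counts scaled to a common library size by the TMM method, and a log2 fold change below 0 means a lower level in Sgo1-/+. Fold changes and their standard errors (SE) come from edgeR's quasi-likelihood test over all genes. Of the 16337 genes, 0 (0%) had an adjusted p under 0.05 by edgeR and 333 (2.04%) had an unadjusted p under 0.05; DESeq2's Wald test gave 3 and 368.

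The coding sequence around the active site of both proteases and around the bonds they are known to cut is shown because it is what joins the proteases and the lecticans as enzyme and substrate. In ADAMTS proteases, 3 histidines hold the catalytic zinc ion. Their codons are in capitals in the following bases of the annotated transcripts (GENCODE, mm10, 5′ to 3′ on the coding strand), in each of which the motif was found at 1 place in the protein:
Adamts5: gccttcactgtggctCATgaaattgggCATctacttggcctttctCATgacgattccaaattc
Adamts4: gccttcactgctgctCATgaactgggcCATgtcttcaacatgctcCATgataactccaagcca
The Adamts5 site lies on the minus strand of chromosome 16 and is split between exon 2 (chr16:85887817-85887841) and exon 3 (chr16:85878000-85878037) of 8, and the Adamts4 site lies on the plus strand of chromosome 1, split between exon 3 (chr1:171253195-171253219) and exon 4 (chr1:171253893-171253930) of 9. The intron falls at the same base of the window in both genes, and 40 of the 63 bases (63.5%) are identical without gaps.

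In the lecticans, the known aggrecanase bond follows a glutamate in the core protein. The codons just before and just after that bond are in capitals:
Acan: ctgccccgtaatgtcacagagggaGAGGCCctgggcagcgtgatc
Bcan: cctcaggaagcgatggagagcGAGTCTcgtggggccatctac
Vcan: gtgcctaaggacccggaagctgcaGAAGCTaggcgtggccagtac
The Acan stretch is in exon 7 of 17 (chr7:79091037-79091081, plus strand), where the bond joins residues 392 and 393 of the 2132 of the annotated protein, and the Bcan stretch is in exon 7 of 14 (chr3:87994191-87994232, minus strand), with the bond between residues 395 and 396 of 883. The Vcan stretch is in exon 8 of 15 (chr13:89693203-89693247, minus strand), with the bond between residues 1401 and 1402 of 3354. These data measure the transcripts, not the cut proteins.

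Adamts5, also called aggrecanase-2, lies on chromosome 16 (chr16:85858170-85901125, minus strand, mm10, ENSMUSG00000022894). Its normalized count was 71.5, 71.9 and 54.0 in the WT libraries and 28.8, 25.6 and 34.8 in the Sgo1-/+ libraries. All 3 Sgo1-/+ libraries were below all 3 WT libraries, which is the property for which the gene was picked. The means were 65.8 ± 10.2 in WT and 29.7 ± 4.68 in Sgo1-/+ (SD, n = 3 each). The fitted log2 fold change was -1.15 (SE 0.254), which is 2.22-fold lower in Sgo1-/+. The same property held for 583 of the 16337 genes with Sgo1-/+ lower (3.57%) and for 536 with Sgo1-/+ higher (3.28%), so that about as many genes were separated in each direction. The log2 fold change was between -1.05 and -1.28 when any 1 library was left out. It was -0.98 among the 4 females, in a fit added after seeing the data. As the groups do not overlap, leaving out libraries could not turn its sign. These values rest on 25.2 to 75.5 estimated counts per library, where counting error alone is 19.9% at the lowest and 11.5% at the highest. In whole tissue, fewer cells of a type that express a gene and less RNA of that gene per cell cannot be told apart.

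Adamts4, aggrecanase-1, is the second protease that cuts these lecticans in brain (chr1:171250421-171260637, plus strand, ENSMUSG00000006403). It had 795, 219 and 282 normalized counts in WT and 350, 446 and 644 in Sgo1-/+. WT replicate 1 held the highest level and the other WT libraries the lowest, so the groups overlapped. Its log2 fold change of 0.15 (SE 0.496) had an adjusted p of 0.9999 by edgeR. With WT replicate 1 left out it was 0.94 (SE 0.262, unadjusted p = 0.00832, adjusted p = 1 by edgeR). In that fit 3.77% of all genes had an unadjusted p under 0.05.

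Set side by side per kilobase of exon, Adamts4 was the more abundant protease in every library. Adamts5 made up 3.86%, 12.8% and 7.88% of their sum in the WT libraries and 3.54%, 2.49% and 2.35% in the Sgo1-/+ libraries. The Sgo1-/+ shares were all below the WT shares, though WT replicate 1, where Adamts4 was high, was close to Sgo1-/+ replicate 1. Because Adamts5 was chosen by this contrast, the shares are given without a test.

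Acan encodes aggrecan, the lectican that defines the perineuronal net (chr7:79053483-79115099, plus strand, ENSMUSG00000030607). It had 192, 69.8 and 88.3 normalized counts in WT and 55.4, 59.5 and 59.9 in Sgo1-/+. As for Adamts5, the groups did not overlap, but the gap was narrow, between 59.9 in the highest Sgo1-/+ library and 69.8 in the lowest WT library, and WT replicate 1 lay far above the rest. The log2 fold change was -1.0 (SE 0.393, unadjusted p = 0.0389, adjusted p = 0.9999 by edgeR), and the exact two-sided permutation test over the libraries gave p = 0.1, the smallest that 3 against 3 allows. The log2 fold change became -0.44 without WT replicate 1 (SE 0.238, unadjusted p = 0.107, adjusted p = 1 by edgeR). Acan was the only one of the 9 members besides Adamts5 with an unadjusted p under 0.05 or with groups that did not overlap. Over all genes, 2.04% had such a p. Groups did not overlap for 3.57% of all genes with Sgo1-/+ lower and for 3.28% with Sgo1-/+ higher.

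The 3 other lecticans overlapped between the groups. Vcan, the versican gene (chr13:89655312-89742509, minus strand, ENSMUSG00000021614), had 334, 397 and 271 normalized counts in WT and 307, 231 and 276 in Sgo1-/+. The fitted difference was -0.30 on the log2 scale (SE 0.183, adjusted p = 0.9999 by edgeR). Its lowest WT library was below 2 of the Sgo1-/+ libraries, so that it did not have the property that chose Adamts5. Its gene span shares 3050 bases with the antisense gene Gm4117, which had 845 to 974 normalized counts in the 6 libraries. Whether exons are shared was not examined. The strand setting of the counting is not given in the sources used here, so reads of this stretch may have been counted for either gene.

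Bcan, brevican, is made largely by glia and had the smallest SE of the lecticans (chr3:87987531-88000356, minus strand, ENSMUSG00000004892). It had 2490, 1906 and 2099 normalized counts in WT and 1827, 2270 and 2261 in Sgo1-/+. The fit put Bcan at -0.03 on the log2 scale (SE 0.148, adjusted p = 0.9999 by edgeR), so that the interval of 2 SE on either side runs from -0.33 to 0.26. Ncan, neurocan (chr8:70093085-70120873, minus strand, ENSMUSG00000002341), had 635, 1621 and 2377 normalized counts in WT and 1499, 2049 and 1931 in Sgo1-/+. The WT libraries spread more widely than the Sgo1-/+ libraries, with the lowest and the highest value both in WT. Its log2 fold change of 0.24 (SE 0.427, adjusted p = 0.9999 by edgeR) became -0.13 (SE 0.192) without WT replicate 1.

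**Figure D1:**
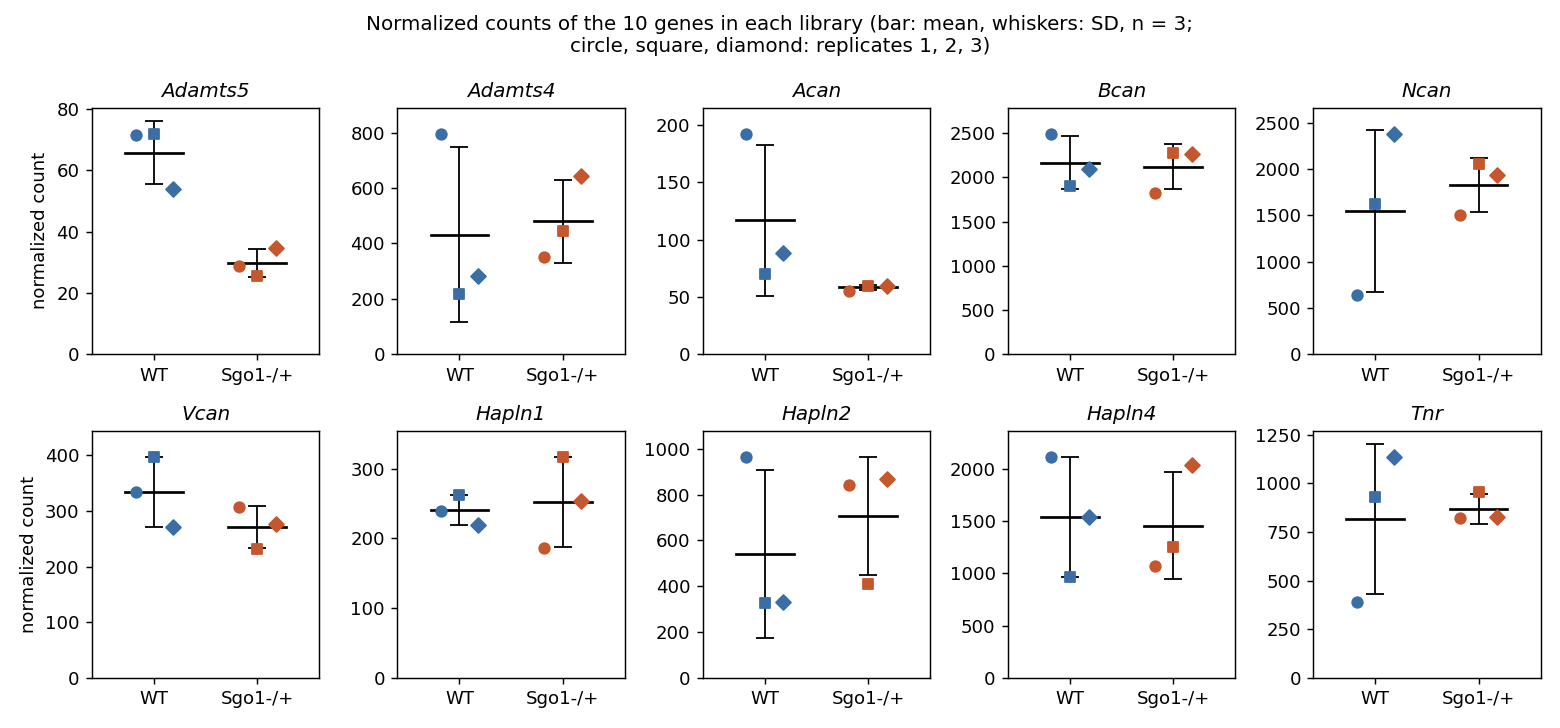
Normalized counts (vertical axes, each from 0) of the 10 genes in the 3 WT (blue) and 3 Sgo1-/+ (orange) libraries; horizontal bars are group means and whiskers the SD, n = 3, and circles, squares and diamonds are replicates 1, 2 and 3. Adamts5 and Acan are the 2 panels in which the groups do not overlap, and the WT circle stands apart from the other WT points in Adamts4, Acan, Ncan, Hapln2 and Tnr.

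The make-up of the lectican transcripts was compared per kilobase of exon, as the share of each gene in the sum of the 4 within a library, which does not depend on how the libraries were scaled. Bcan held 81.7, 64.2 and 58.9% of the sum in WT and 65.5, 64.4 and 65.3% in Sgo1-/+. Ncan held 11.8, 30.8 and 37.7% in WT and 30.3, 32.8 and 31.5% in Sgo1-/+. Brevican and neurocan together made up nearly all lectican transcripts in every library. Their 2 shares were alike in the 3 Sgo1-/+ libraries and differed among the WT libraries, where WT replicate 1 lay furthest from the rest. WT replicate 2, at 64.2 and 30.8%, was close to the Sgo1-/+ libraries. Acan held 3.44, 1.28 and 1.35% in WT and 1.08, 0.919 and 0.941% in Sgo1-/+, and Vcan 3.08, 3.75 and 2.14% in WT and 3.09, 1.84 and 2.24% in Sgo1-/+.

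The Acan share was 2.02 ± 1.23% in WT and 0.980 ± 0.0877% in Sgo1-/+ (SD, n = 3 each), a difference of -1.04 percentage points (exact two-sided permutation p = 0.1, adjusted p = 0.7 over the 7 shares tested here). The WT mean of this share was 1.31% without WT replicate 1. The exact permutation p was 1 for the Bcan share, 0.8 for Ncan and 0.5 for Vcan. No p of 3 against 3 libraries can be under 0.1, and exon length per gene was taken as 1 fixed value, although Vcan is spliced into forms of very different length.

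Link proteins clasp the lecticans to hyaluronan. Each lies beside a lectican gene, with 0 protein-coding genes between them in the annotation: Hapln1 beside Vcan on chromosome 13 (43.7 kb apart), Hapln2 beside Bcan on chromosome 3 (21.5 kb), Hapln4 beside Ncan on chromosome 8 (2.2 kb), and Hapln3 beside Acan on chromosome 7. Hapln2 and Bcan were not alike over these libraries, nor were Hapln4 and Ncan. Hapln2 was lowest in WT replicates 2 and 3 while Bcan differed little between libraries. Hapln4 was highest in WT replicate 1 while Ncan was lowest there. Hapln1 and Vcan put the libraries in the same order within WT and in the opposite order within Sgo1-/+. Hapln3 was removed by the filter on low counts and was not compared with Acan.

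Hapln1 (chr13:89540636-89611832, plus strand, ENSMUSG00000021613), the link protein that is needed for a full perineuronal net, had 239, 262 and 219 normalized counts in WT and 186, 316 and 254 in Sgo1-/+. The Sgo1-/+ libraries held both the lowest and the highest value, and the log2 fold change was 0.07 (SE 0.207, adjusted p = 0.9999 by edgeR). Hapln4 (chr8:70083529-70090862, plus strand, ENSMUSG00000007594), known from the matrix around inhibitory synapses, had 2112, 963 and 1541 normalized counts in WT and 1075, 1254 and 2038 in Sgo1-/+. The groups overlapped widely, with a log2 fold change of -0.08 (SE 0.339, adjusted p = 0.9999 by edgeR) that was 0.22 (SE 0.298) without WT replicate 1.

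Hapln2 (chr3:88021750-88027583, minus strand, ENSMUSG00000004894), the link protein of the nodes of Ranvier, had 963, 328 and 330 normalized counts in WT and 844, 409 and 869 in Sgo1-/+. The gene was high in WT replicate 1 and in Sgo1-/+ replicates 1 and 3, and lowest in the remaining WT libraries. For Hapln2 the log2 fold change was 0.39 (SE 0.491, adjusted p = 0.9999 by edgeR). It was 1.10 with WT replicate 1 left out (SE 0.309, unadjusted p = 0.00833, adjusted p = 1 by edgeR). Among the 4 females, in a fit added after seeing the data, it was 1.38 (SE 0.123, adjusted p = 0.159 by edgeR). That fit leaves out the highest WT library, at 963 normalized counts, and the lowest Sgo1-/+ library, at 409. Hapln2 and Adamts4 were the 2 of the 9 members besides Adamts5 with an unadjusted p under 0.05 without WT replicate 1, where 3.77% of all genes had one. Hapln3 was at 2.57 to 14.3 normalized counts and was removed by the filter.

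Per kilobase, Hapln4 made up 54.6, 57.3 and 69.0% of the link protein sum of Hapln1, Hapln2 and Hapln4 in WT and 41.4, 58.6 and 55.9% in Sgo1-/+. Hapln2 made up 41.2, 32.3 and 24.5% in WT and 53.8, 31.6 and 39.5% in Sgo1-/+, and Hapln1 made up 4.12, 10.4 and 6.53% in WT and 4.78, 9.82 and 4.63% in Sgo1-/+. The shares overlapped between the groups for all 3 link proteins (exact two-sided permutation p = 0.5 for Hapln2 and Hapln4 and 0.8 for Hapln1). The Hapln2 share was higher by 8.96 percentage points in Sgo1-/+, less than its SD of 11.3 among the Sgo1-/+ libraries.

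**Figure D2:**
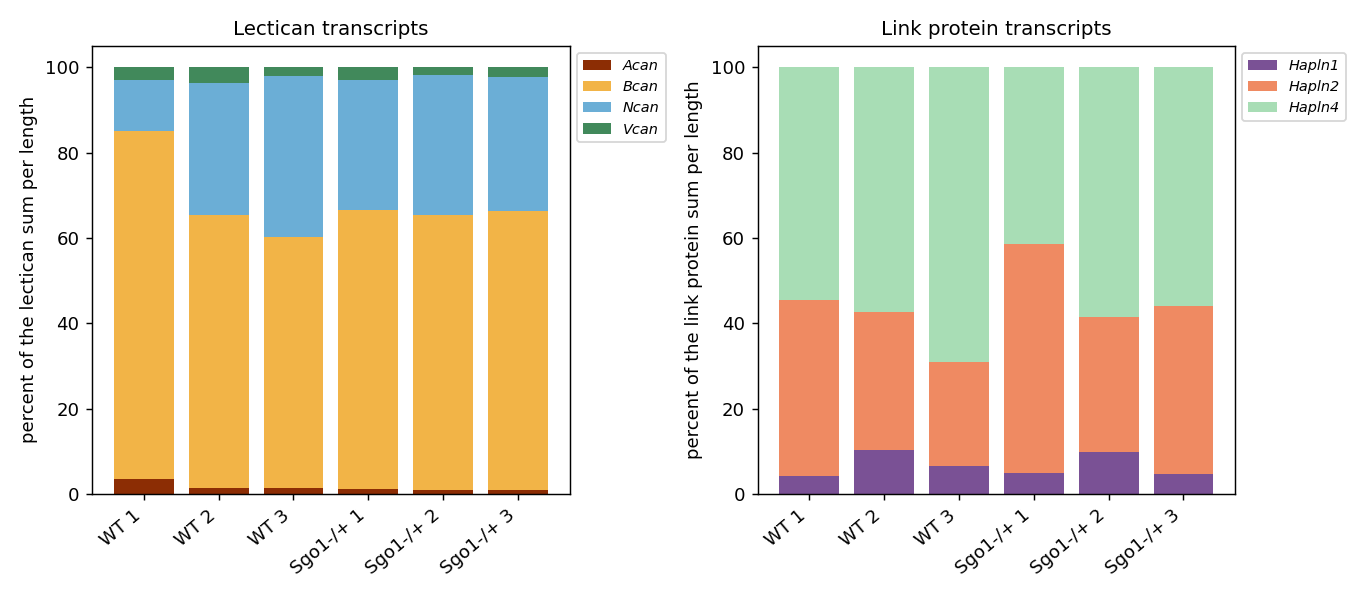
Share (percent, vertical axis) of each lectican, left, and each link protein, right, in the sum of normalized counts per kilobase of exon in each of the 6 libraries. Bcan fills 58.9 to 81.7% of the lectican bars, with the highest share in WT replicate 1, and Hapln4 is the largest part of the link protein bars in all libraries but Sgo1-/+ replicate 1, where Hapln2 holds 53.8%.

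Tnr (chr1:159737510-159924397, plus strand, ENSMUSG00000015829), whose product tenascin-R links lecticans to each other, had 387, 932 and 1134 normalized counts in WT and 821, 955 and 826 in Sgo1-/+. WT replicate 1 was again apart, here at the low end as for Ncan. Tnr had a log2 fold change of 0.09 (SE 0.356, adjusted p = 0.9999 by edgeR) and of -0.25 (SE 0.126, adjusted p = 1) without WT replicate 1. The Tnr gene span shares 3337 bases with an antisense gene for which no counts were found.

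Over the 9 members besides Adamts5, 5 log2 fold changes were above 0 and 4 below, with a median of 0.07, and the median over all genes was -0.0007. Their SE ran from 0.148 for Bcan to 0.496 for Adamts4, so that the libraries could resolve much smaller differences for Bcan than for Adamts4, Hapln2 or Ncan. Levels per kilobase of exon fell in the order Bcan, Hapln4, Hapln2, Ncan, Adamts4, Tnr, Hapln1, Vcan, Acan and Adamts5. Bcan stood at 533 ± 73.2 normalized counts per kilobase in WT and 522 ± 62.3 in Sgo1-/+, and Adamts5 at 6.10 ± 0.945 and 2.75 ± 0.433 (SD, n = 3 each). Neighbours in this order overlapped in their ranges over the 6 libraries, except Hapln1 above Vcan and Acan above Adamts5.

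**Figure D3:**
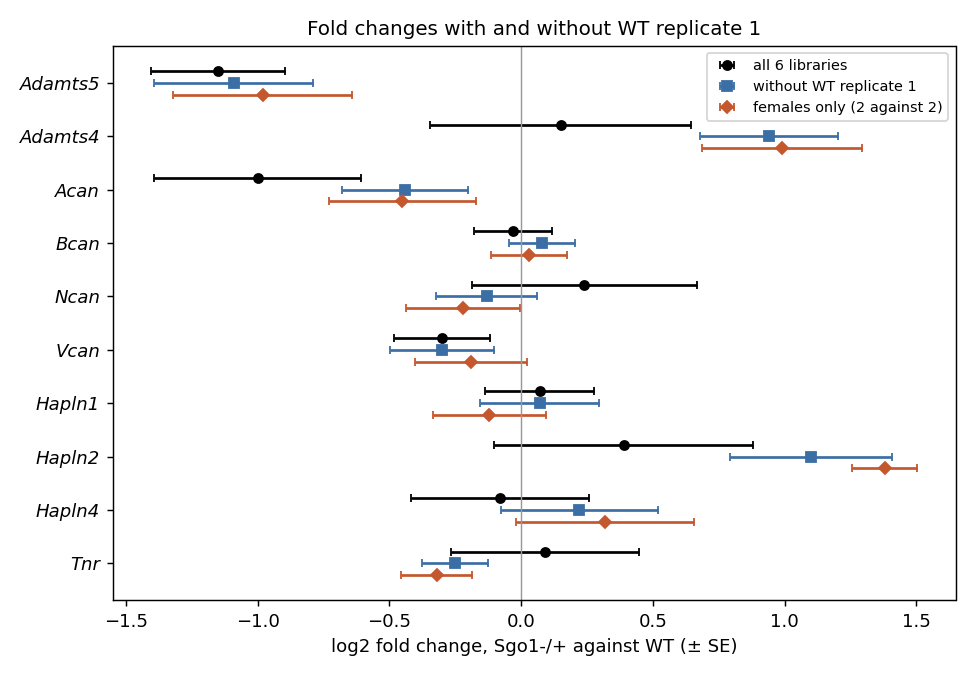
Log2 fold changes of the 10 genes, Sgo1-/+ against WT (horizontal axis), with bars of 1 SE, from all 6 libraries (black), without WT replicate 1 (blue) and from the 4 females (orange). Adamts5 lies between -1.15 and -0.98 in the 3 fits. It was chosen because its groups do not overlap, so leaving out libraries could not turn its sign. Acan moves from -1.0 to -0.44 and Adamts4 from 0.15 to 0.94 when WT replicate 1 is left out. The fit of the females was added after seeing the data.

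Several marker lists moved in part with these genes between libraries. The summed level of 10 oligodendrocyte genes, the cells that make myelin, was 145891, 55938 and 60708 normalized counts in WT and 80745, 78481 and 138394 in Sgo1-/+, and 7 of the 10 genes were highest in WT replicate 1 and 3 in Sgo1-/+ replicate 3. Adamts4 was highest in the same 2 libraries, and both Adamts4 and Hapln2 were lowest, as was this sum, in WT replicates 2 and 3. Sgo1-/+ replicates 1 and 2 had similar sums, but Hapln2 was at 844 and 409 normalized counts in them, and Adamts4 at 350 and 446. Without WT replicate 1, 8 of the 10 oligodendrocyte genes had an unadjusted p under 0.05 by edgeR, all with Sgo1-/+ higher, against 3.77% of all genes. None of the 10 had an adjusted p under 0.05 in that fit. Their median log2 fold change was 0.75, beside 0.94 for Adamts4 and 1.10 for Hapln2. The part of these cells in the levels of Adamts4 and Hapln2 was not tested.

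Acan was highest in the library that also held the most RNA of Pvalb and Syt2, markers of fast-spiking interneurons, with 4260 and 6618 normalized counts in WT replicate 1 against at most 1211 and 1542 elsewhere. Over the whole list of 10 parvalbumin interneuron genes, 4 were highest and the other 6 lowest in that library. There the list lay at -0.64 in the plot of log2 ratios by library. The summed level was 22203 to 25727 normalized counts in WT and 19450 to 21574 in Sgo1-/+. Of the 10 genes, however, 5 had a log2 fold change above 0 and 5 below. Their median was -0.04, or 0.13 without WT replicate 1. Lhx6, which marks interneurons of the cortex, was at 10.1 normalized counts in WT replicate 1 and at 209 to 421 in the others. The part of brain stem, cerebellum or interneuron RNA in the level of Acan was not tested. Ncan and Tnr were lowest in WT replicate 1, as were 9 of the 10 cortical excitatory neuron genes, a list whose median log2 fold change was 0.50 with that library and 0.14 without it. The part of cortical RNA in the levels of Ncan and Tnr was not tested.

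For Adamts5, WT replicate 1 was close to WT replicate 2, with 71.5 and 71.9 normalized counts, while the brain stem list summed to 6482 and 417 normalized counts in them and the cerebellum list to 28088 and 2141. Genes of the olfactory bulb and of meningeal fibroblasts had log2 fold changes below 0, as Adamts5 did. This held for all 10 olfactory bulb genes, with a median log2 fold change of -1.48. Of these genes, 2 had an unadjusted p under 0.05 by edgeR, against 2.04% of all genes. Without WT replicate 1 the median was -1.99 and 9 of the 10 had one, against 3.77% of all genes. None of the 10 had an adjusted p under 0.05 in either fit. Their summed level was 1040, 3056 and 2331 normalized counts in WT and 1611, 656 and 364 in Sgo1-/+. All 10 meningeal fibroblast genes were below 0 too, with a median of -0.62 with and without WT replicate 1 and 1 unadjusted p under 0.05 in either fit. They summed to 2611, 2516 and 1788 normalized counts in WT and 2096, 652 and 2178 in Sgo1-/+, where 9 of the 10 were lowest in Sgo1-/+ replicate 2. Astrocyte genes summed to 56108 to 66863 normalized counts in WT and 56799 to 63154 in Sgo1-/+, oligodendrocyte precursor genes to 3321 to 3881 and 3825 to 4737, and endothelial and mural cell genes to 4814 to 4899 and 4378 to 5954. All 12 immediate early genes, which neurons switch on with activity, had log2 fold changes above 0. Their median was 1.02, or 0.69 without WT replicate 1, and 7 of the 12 were lowest in that library. With all libraries, 3 of the 12 had an unadjusted p under 0.05 by edgeR, against 2.04% of all genes. Without WT replicate 1, 3 had one, against 3.77%. Groups did not overlap for 6 of the 12, all with Sgo1-/+ higher, against 3.28% of all genes. The 12 genes summed to 2649 to 6020 normalized counts in WT and 6481 to 11944 in Sgo1-/+. The part of any of these in the level of Adamts5 was not tested.

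**Figure D4:**
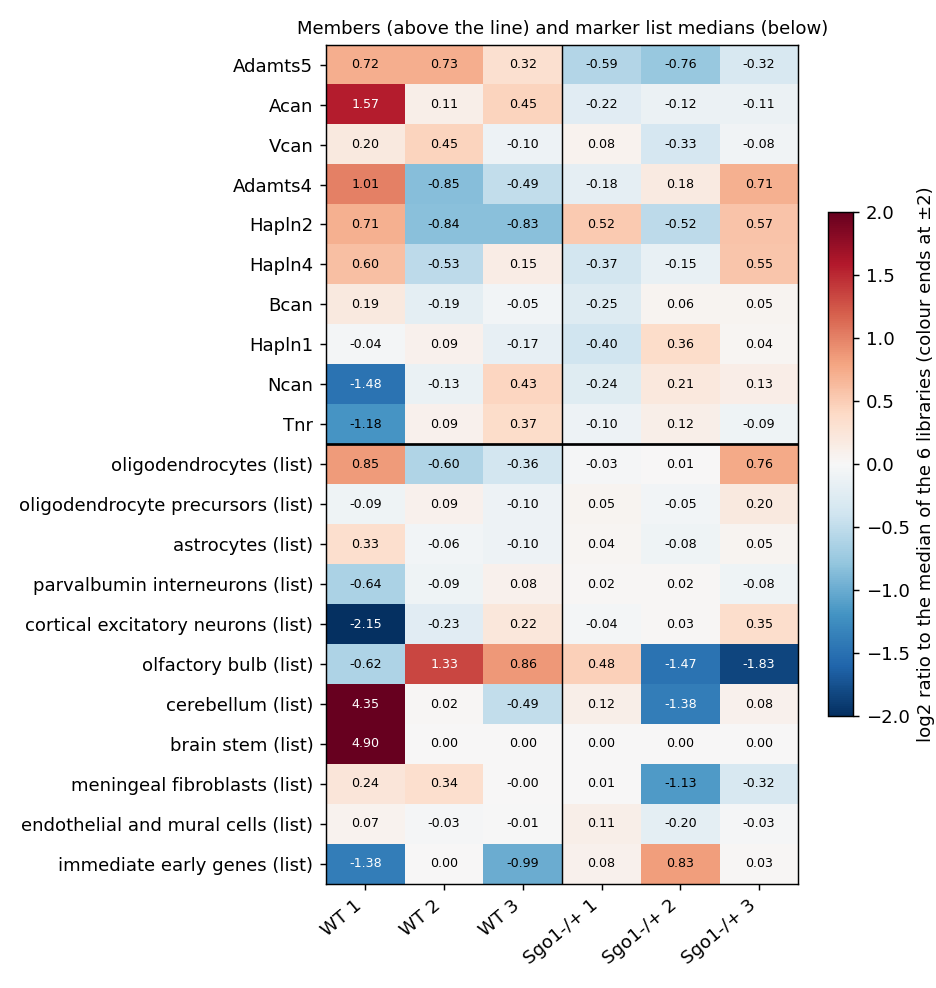
Log2 ratio of each member to its own median over the 6 libraries (upper rows) and the median of this ratio over each marker list, with values under 3 counts set to 3 (lower rows); colours run from blue, below the median, to red, above it. WT replicate 1 stands out in the brain stem (4.90) and cerebellum (4.35) lists, and Adamts5 is above its median in all 3 WT libraries and below it in all 3 Sgo1-/+ libraries.

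The genes around the lecticans were followed in 7 lists of 71 genes in all, of which 68 passed the filter. Of these, 42 had a log2 fold change above 0 and 26 below, with a median of 0.06, and 3 (4.41%, against 2.04% of all genes) had an unadjusted p under 0.05 (1 higher and 2 lower), none with an adjusted p under 0.05 by edgeR. Among the 5 other proteases of the same ADAMTS clade, including Adamts1, the neighbour of Adamts5 on chromosome 16 (53.1 kb away), 4 were higher and 1 lower, and 0 had an unadjusted p under 0.05. Adamts1 had 243, 255 and 131 normalized counts in WT and 485, 158 and 192 in Sgo1-/+, so that it did not share the ordering of Adamts5. None of the 6 protease inhibitors had an unadjusted p under 0.05 with all libraries. Without WT replicate 1, 1 of the 6 had one by edgeR, with Sgo1-/+ higher, against 3.77% of all genes. Timp3, the inhibitor that binds Adamts4 and Adamts5 tightly, had 1411, 1502 and 1072 normalized counts in WT and 1633, 1259 and 1297 in Sgo1-/+ (log2 fold change 0.07, SE 0.169).

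Among 12 other matrix proteases, 11 were tested and 1 had an unadjusted p under 0.05. This was Mmp14, a membrane-bound metalloprotease, with 195, 231 and 112 normalized counts in WT and 123, 90.2 and 119 in Sgo1-/+ (log2 fold change -0.69, SE 0.291, unadjusted p = 0.0488, adjusted p = 0.9999 by edgeR). Its groups overlapped. Without WT replicate 1, with 1 library fewer, the log2 fold change of Mmp14 was -0.63 (unadjusted p = 0.083 by edgeR). Mmp9, a gelatinase that acts on nets, had 44.9, 28.6 and 12.4 normalized counts in WT and 19.6, 6.50 and 17.4 in Sgo1-/+ (log2 fold change -0.98, SE 0.601). Its log2 fold change was -0.50 without WT replicate 1.

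Of 9 genes of hyaluronan synthesis, turnover and reception, 3 were higher and 6 lower. Has3, a hyaluronan synthase, had 63.6, 70.6 and 81.6 normalized counts in WT and 41.4, 53.6 and 37.6 in Sgo1-/+, with no overlap between the groups (log2 fold change -0.69, SE 0.238, unadjusted p = 0.0236, adjusted p = 0.9999 by edgeR). Has3 was the only one of the 9 whose groups did not overlap, which held for 3.57% of all genes with Sgo1-/+ lower. The log2 fold change of Has3 was -0.77 without WT replicate 1 (unadjusted p = 0.0234 by edgeR). Has2, another synthase, was at 3.04 to 16.1 normalized counts, too low to place, and Hyal2, a hyaluronidase, had a log2 fold change of 0.24 (SE 0.196).

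Of 20 genes that build and sulfate chondroitin chains, 19 were tested, 13 were higher and 6 lower, with a median log2 fold change of 0.02. B3galt6, which adds a galactose to the linker between core protein and chain, had 164, 144 and 166 normalized counts in WT and 223, 201 and 210 in Sgo1-/+, with all Sgo1-/+ libraries above all WT libraries (log2 fold change 0.42, SE 0.136, unadjusted p = 0.018, adjusted p = 0.9999 by edgeR). B3galt6 was the only one of the 19 whose groups did not overlap, which held for 3.28% of all genes with Sgo1-/+ higher. The sulfotransferases Chst3 and Chst11 had log2 fold changes of -0.17 (SE 0.338) and 0.17 (SE 0.232), and both were at -0.03 without WT replicate 1. Among 10 tested genes of other net components, and among 8 of chondroitin sulfate receptors, 0 had an unadjusted p under 0.05, and the receptor phosphatase Ptprz1, itself a chondroitin sulfate proteoglycan, had a log2 fold change of -0.06 (SE 0.122), or 0.01 without WT replicate 1.

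The genes whose levels over the 6 libraries were most like those of Adamts5, by Pearson's r of log2(normalized count + 1) among 12990 genes with a mean of at least 50, were Kank1 (r = 0.997), Kansl1l (0.982), Sec61g (0.976), Aspscr1 (0.973) and Fam45a (0.972). Their log2 fold changes were smaller than that of Adamts5, from -0.40 for Kank1 to -0.15 for Fam45a. Kank1 had 344, 336 and 300 normalized counts in WT and 246, 235 and 263 in Sgo1-/+. These r values rest on 6 libraries in 2 groups and were picked as the highest of many, so they describe the ordering of these libraries. Among the members, Vcan (r = 0.75, rank 487) and Acan (r = 0.71, rank 646) were the most like Adamts5 by this measure, and Ncan (r = -0.48) was the least like it.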

How the data were processed

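RNA-seq libraries of brain from 3 WT and 3 Sgo1-/+ mice were compared. The authors aligned paired MiSeq reads to mm10 in Strand NGS and deposited an estimated count per Ensembl gene and library, without scaling; the submitters' processing notes also list BWA and edgeR, with no role. The release and the strand setting of the counting are not given in the sources used here. Values that were not whole (tolerance 0.001) made up 46.3 to 47.6% of a library. The 6 columns of normalized values and the columns of the authors' own fold changes were not used. Columns were tied to samples by the numbers in their names and the group order of the table.

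Counts were rounded and fitted with edgeR 4.0.16 (R 4.3.3; TMM, filterByExpr by group, quasi-likelihood test, Benjamini-Hochberg over 16337 genes, no covariates), after a run on simulated counts. The SE is the size of the log2 fold change divided by the square root of F. Single values and shares were tested by permuting the libraries over all 20 groupings (scipy 1.17.1, exact, two-sided). Levels per kilobase used the union of annotated exons (GENCODE, GRCm38), and genes were matched by symbol or gene ID (196 of 197 listed genes found). Named genes are the 10 members, Hapln3, listed pathway genes with an unadjusted p under 0.05, Timp3, Has2, Hyal2, Ptprz1, Chst3, Chst11 and Mmp9, defining markers, and the 5 genes most like Adamts5; Adamts1, as its neighbour on the chromosome, and Gm4117, which overlaps Vcan, were added after values were seen. The members and all lists were chosen with earlier results of these data known. Alternatives were DESeq2 1.42.0 (Wald test, and its size factors), limma 3.58.1 on log2 of DESeq-normalized counts plus 1, other filters, a term for sex, a block for the replicate number, leaving out each library in turn, and, for shares, other gene lengths; a fit of the females alone was added after seeing the data. Each library is 1 mouse, counting limits cover counting error only, and reads carried no molecular identifiers.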

Additional observations from a re-analysis of the deposited data

How the results depend on the processing

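Vcan and Hapln2 kept their direction under all 14 alternatives, with ranges over the libraries left out of -0.42 to -0.15 and 0.13 to 1.10. Adamts5 ranged from -1.28 to -1.05 and Acan from -1.27 to -0.44; since their groups do not overlap, leaving out libraries could not turn them. Others turned. Among the females alone, an alternative chosen after seeing the data, the log2 fold change was 0.03 for Bcan, -0.22 for Ncan, -0.12 for Hapln1, 0.32 for Hapln4 and -0.32 for Tnr. With single libraries left out, Adamts4 ranged from -0.17 (without WT replicate 2) through -0.08 (without WT replicate 3) and -0.12 (without Sgo1-/+ replicate 3) to 0.94. Without WT replicate 1, Bcan was 0.08, Ncan -0.13, Hapln4 0.22 and Tnr -0.25; without Sgo1-/+ replicate 1, Bcan was 0.07 and Hapln4 0.10; without Sgo1-/+ replicate 2, Hapln1 was -0.13 and Hapln4 0.01. Over all libraries left out in turn, Bcan ranged from -0.11 to 0.08, Ncan from -0.13 to 0.70, Hapln1 from -0.13 to 0.25, Hapln4 from -0.40 to 0.22 and Tnr from -0.25 to 0.40. No member had an adjusted p under 0.05 in any fit. The cause of these changes was not tested.

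Genes with an adjusted p under 0.05 numbered 0 with all libraries, 3 with DESeq2, 1 among the females alone and 0 to 1 with a library left out (1 without Sgo1-/+ replicate 2). Genes with an unadjusted p under 0.05 numbered 333, and 563 with no filter on low counts, where more genes were tested, 578 among the females, and 240 to 1040 with a library left out (626 without WT replicate 1 and 1040 without WT replicate 3). The replicate numbers did not pair the libraries: deviations of same-numbered libraries correlated at -0.146, 0.014 and -0.207, and each WT library correlated best with another number. The fit with the replicate block gave 0 and 280 such genes. In percentage points, Sgo1-/+ minus WT, the differences in share with a library left out ranged from -1.41 to -0.332 for Acan, -7.86 to 3.56 for Bcan, -2.68 to 10.3 for Ncan, -1.02 to -0.215 for Vcan, -2.3 to 1.08 for Hapln1, 2.87 to 14 for Hapln2 and -11.7 to -3.1 for Hapln4. Other gene lengths turned none of the 7 shares. Of 56 share values under alternatives, 5 turned: Bcan (3.56) and Ncan (-2.68) without WT replicate 1, and Hapln1 without WT replicate 2 (1.08), Sgo1-/+ replicate 1 (0.221) or Sgo1-/+ replicate 3 (0.295).

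With 3 libraries a group, a single low gene such as Adamts5 rests on few counts, and a wide SE leaves a difference of 2-fold within reach for Adamts4, Hapln2 and Ncan. The run is shared by all libraries of a group.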
